A study of Mus musculus with 8 samples.

Results

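The RNAs of 10 genes of the SMC, cohesin and condensin complexes were examined among the RNA targets of MBD5 and MBD6 in mouse embryonic stem (mES) cells. The genes are Smc1a, Smc3 and Rad21 of cohesin, Smc2, Smc4 and Ncapd2 of condensin, Smc5 and Smc6 of the SMC5/6 complex, Rad50 of the MRN complex, and Smchd1, 10 of 21866 protein-coding genes with an annotated coding sequence in GENCODE release M21. A peak was counted for a gene when its midpoint lay in the gene body on the same strand of the mouse genome build mm10. By this rule 189 of 29555 peaks belonged to the 10 genes. The rule uses no measured value, but the genes were listed with earlier results of these data known.

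The series compares RNA bound by Flag-MBD5 with RNA bound by Flag-MBD6 by cross-linking and immunoprecipitation followed by sequencing (CLIP), with 2 CLIP libraries for each protein and 4 digested inputs that are not analysed here as samples. Per the labels, wild-type mES cells carried the human MBD5 or MBD6 coding sequence in a vector with a 3XFlag tag and hygromycin resistance, so the tagged protein was overexpressed in cells that also have their own mouse proteins, and no CLIP of untagged cells was analysed here. All cells grew in serum, LIF, CHIR99021 and PD0325901 and were passaged on gelatin to remove feeder cells, and nothing in the labels says whether the replicates came from separate cultures or clones. The labels give embryos as the tissue and mESC as the cell line; the sample characteristics and the study's methods name a Flag antibody, whereas the extraction protocol names an antibody against MBD6 for all samples.

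SMC proteins are long ATPases that fold back on themselves. The ends of the chain form the ATPase head, the middle forms the hinge, and the stretches between them run alongside each other as an antiparallel coiled coil. Pairs of SMC proteins, closed by other subunits, form rings or clamps on DNA that hold sister chromatids together (cohesin), compact mitotic chromosomes (condensin) or act in DNA repair (SMC5/6). RAD50, in the complex that processes DNA ends, has a similar head and coiled coil but not the SMC hinge. SMCHD1 has a related hinge domain and acts in X inactivation. MBD5 and MBD6 are methyl-CpG-binding-domain proteins that associate with the deubiquitylase complex PR-DUB.

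Peaks of the 4 libraries that overlapped on a strand by at least 1 bp were joined into sites, and the 189 peaks fell into 70 sites. The 5′ end of a site is the most common 5′ end of its peaks, and the 30 nt that begin there are called its window. RNase T1, used in all libraries, cleaves after G. For each member with an exonic site in all 4 libraries, the window of the strongest such site by mean fold enrichment is shown here. Every library had a peak in each of these sites, but the peak of a library need not cover the whole window. Each line runs 5′ to 3′ in the sense of the RNA, with T for U, and was read from GENCODE M21 transcripts. Capitals mark the window, the 10 nt before it and the 20 nt after it are in lower case, and site numbers run 5′ to 3′ within a gene.
Smc1a site 2, exon 5, chrX:152026601-152026660, plus strand: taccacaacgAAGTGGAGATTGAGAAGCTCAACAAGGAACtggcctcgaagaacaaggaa
Smc3 site 9, exon 24, chr19:53640807-53640866, plus strand: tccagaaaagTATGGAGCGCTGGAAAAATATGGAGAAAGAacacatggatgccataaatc
Rad21 site 1, exon 5 and the end of the exon before it, chr15:51973892-51976106, minus strand: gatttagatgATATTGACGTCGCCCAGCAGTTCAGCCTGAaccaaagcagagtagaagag
Smc2 site 4, exon 11, chr4:52458446-52458505, plus strand: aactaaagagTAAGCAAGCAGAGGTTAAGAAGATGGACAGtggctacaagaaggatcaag
Smc4 site 2, exon 8, chr3:69018087-69018146, plus strand: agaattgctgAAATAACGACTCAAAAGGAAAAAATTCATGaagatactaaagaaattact
Smc5 site 4, exon 9, chr19:23244041-23244100, minus strand: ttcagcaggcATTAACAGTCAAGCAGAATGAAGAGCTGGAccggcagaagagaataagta
Smc6 site 1, exon 2, chr12:11271767-11271826, plus strand: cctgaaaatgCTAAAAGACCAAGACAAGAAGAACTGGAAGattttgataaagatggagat
Rad50 site 5, exon 21 and the end of the exon before it, chr11:53668189-53669631, minus strand: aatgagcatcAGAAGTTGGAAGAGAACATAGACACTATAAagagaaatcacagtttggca
Most of these windows are rich in A and G, with GAA, GAG and AAG repeated along them, whereas the Rad21 window is not.

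The depth of each library was estimated from its peak list, since the lists hold no read totals. It came to 478790 and 500143 reads for Flag-MBD5 and to 983918 and 1111742 for Flag-MBD6, 2.14 times as many in all. Replicates differed by less than sampling noise: the chi-square per degree of freedom was 0.519 between the Flag-MBD5 libraries over 685 sites and 0.872 between the Flag-MBD6 libraries over 277 sites, and over member sites it was 0.538 (23 sites) and 0.812 (20 sites). Each protein was therefore counted as 1 sample, and tests below compare these libraries and not the proteins at large. Peaks were found in both Flag-MBD6 libraries for 8 of 10 stem cell markers, Sox2 and Zfp42 among them, and for 0 of 8 feeder fibroblast markers and 0 of 7 early differentiation markers, while Lin28a had none in any library and Pou5f1 and Nanog had none in the Flag-MBD5 libraries.

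All 10 members had at least 1 peak in every library. Both Flag-MBD5 libraries had a peak in 10 of 10 members, against 8.13% of all protein-coding genes and 16.3% of the 5685 genes with a coding sequence at least as long as that of Rad21, the shortest member (1905 nt). Both Flag-MBD6 libraries also had a peak in 10 of 10, against 14.1% of all protein-coding genes and 27.5% of the genes of that length. Since the members were chosen with earlier results of these data known, the contrast with these shares is a description and no independent test. No peak lay in a member on the opposite strand. Flag-MBD5 had 30 and 33 member peaks per library and Flag-MBD6 had 62 and 64, a ratio of 2 (95% exact interval from counting, 1.47 to 2.75), where the ratio over all peaks was 1.75. With the same number of peaks taken from each library, best q first, member peaks came to 30, 33, 44 and 45 and the ratio to 1.41.

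For 2 of the 10 members, the Flag-MBD5 peaks lay over another gene. In Ncapd2, the HEAT-repeat subunit of condensin, the only site with a Flag-MBD5 peak was chr6:125186290-125186639, in an intron that holds the small RNA gene Scarna10 (chr6:125186359-125186683) and the sense-intronic transcript Gm28967 on the same strand. It had 106 and 111 summit reads with Flag-MBD5 and 144 and 153 with Flag-MBD6, more than any other member site, and cannot be ascribed to the Ncapd2 mRNA. In Smchd1 the only Flag-MBD5 site, with 11 and 15 reads and no Flag-MBD6 peak, lay over Gm4707 (chr17:71458327-71459918), a gene annotated as protein-coding inside a Smchd1 intron. Without these sites, 68 sites remained and 8 of 10 members had peaks in both Flag-MBD5 libraries. The sites in Ncapd2 and Smchd1 exons that both Flag-MBD6 libraries held would give 7.24, 9.11, 8.41 and 5.61 reads at the Flag-MBD5 depth. The fewest reads of any Flag-MBD5 peak was 5, and the part of depth in the absence of a Flag-MBD5 peak at these sites was not tested.

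**Figure D1:**
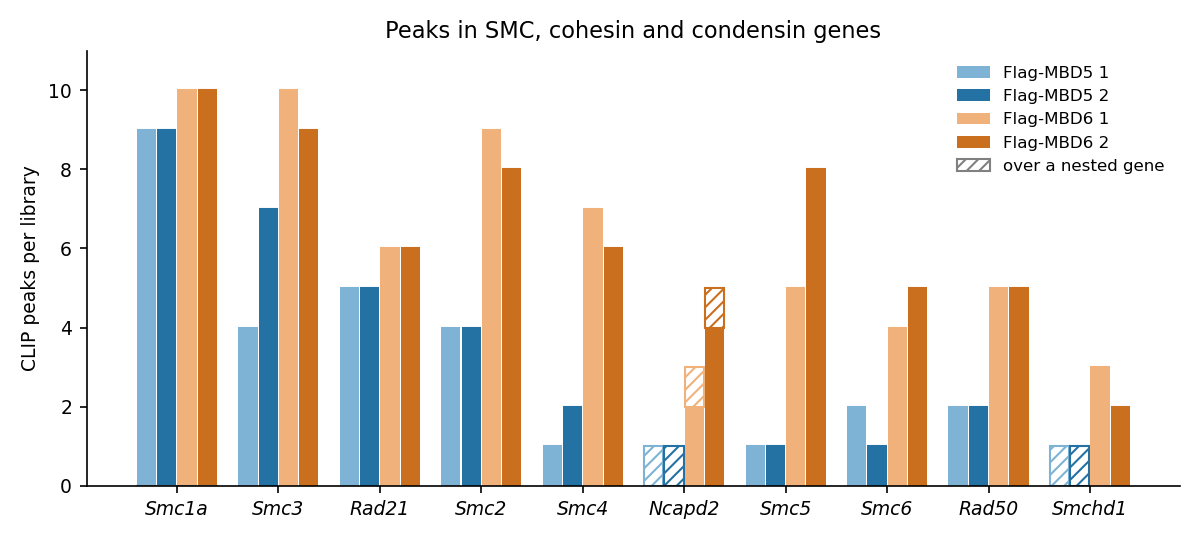
Number of CLIP peaks (y axis) with a midpoint in each member (x axis) in each of the 4 libraries; hatched bars are peaks over a gene nested in an intron of the member. Smc1a had 9 or 10 peaks in every library, and every Flag-MBD5 peak of Ncapd2 and Smchd1 is hatched.

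Smc1a and Smc3 of cohesin held the most peaks of the members, followed by Smc2 of condensin (25 in total) and Rad21 (22). Smc1a, which encodes a core ATPase of cohesin, had 9, 9, 10 and 10 peaks (Flag-MBD5 1 and 2, then Flag-MBD6 1 and 2, an order kept below), 38 in total, and 41 protein-coding genes had more. Smc3, the SMC partner of SMC1A in the ring, had 4, 7, 10 and 9. Rad21, the kleisin that closes the ring, had 5, 5, 6 and 6 peaks and, at 11.5 peaks per kb of coding sequence over the 4 libraries, the highest density of the members, above 95.1% of the genes with a peak. Of the 3 cohesin genes, Smc1a and Rad21 had nearly as many peaks with Flag-MBD5 as with Flag-MBD6.

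Condensin and SMC5/6 genes had fewer Flag-MBD5 peaks. Smc2 and Smc4 encode the paired ATPases of condensin, and Smc2 had 4, 4, 9 and 8 peaks whereas Smc4 had 1, 2, 7 and 6. Smc5 had 1, 1, 5 and 8 and Smc6 had 2, 1, 4 and 5. Rad50 had 2, 2, 5 and 5. In exons, Ncapd2 had 0, 0, 2 and 4 and Smchd1 had 0, 0, 3 and 2. In these 7 genes, as in the cohesin genes, each Flag-MBD6 library had more peaks than either Flag-MBD5 library. The depth of the libraries differed in the same direction.

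Levels per length were compared as the summed summit reads per 1000000 reads of depth (RPM) of a gene's exonic peaks, per kb of coding sequence. In the Flag-MBD6 libraries Smc1a had 130 and 110 RPM per kb, the highest of the members. Smc2 followed with 84.8 and 83.8, Rad21 with 68.3 and 76.5, Smc3 with 62.9 and 68.2, and Smc5 with 58.2 and 61.5. The libraries of Rad21, Smc3 and Smc5 did not overlap, and the highest Smc3 library (68.2) lay next to the lowest Rad21 library (68.3). Smc4 had 41.4 and 38.7, Rad50 36.2 and 32.7, and Smc6 32.4 and 31.98, and the gap between Rad50 and Smc6 was smaller than the spread of Rad50. Ncapd2 (7.79 and 14.4) and Smchd1 (6.92 and 4.78) were lowest, and both Ncapd2 libraries were above both Smchd1 libraries.

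In the Flag-MBD5 libraries the order was similar at the top. Smc1a had 102 and 89.7 RPM per kb and Rad21 64.7 and 71.4, while Smc2 had 43.3 and 41.4 and Smc3, whose libraries differed most, 30.9 and 51.5, so Smc2 and Smc3 could not be ordered. Rad50 (17.5 and 22.4), Smc5 (18.97 and 13.9), Smc6 (15.2 and 9.11) and Smc4 (7.04 and 12.4) had overlapping or adjacent values. These sums include only reads at called peaks, so a weak site adds to the deeper libraries before it adds to the shallower ones.

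Among the genes whose levels per kb across the 4 libraries were nearest to those of Smc1a, by Euclidean distance on the log2(RPM per kb + 1) scale, were mt-Nd5 (0.184) and Nolc1 (0.204). mt-Nd5, a mitochondrial subunit of respiratory complex I, had 95.2, 81.3, 124 and 112 RPM per kb. Nolc1 encodes a nucleolar phosphoprotein. Distances rest on 4 libraries and describe levels only.

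Of the 68 exonic sites, 22 had a peak in all 4 libraries, 12 in both Flag-MBD6 libraries and a single Flag-MBD5 library, 21 in both Flag-MBD6 libraries alone and 13 in a single Flag-MBD6 library. No exonic member site had a Flag-MBD5 peak without a Flag-MBD6 peak. Over the 12074 sites of the series, exonic or not, 885 had a Flag-MBD5 peak without a Flag-MBD6 peak. Peaks in all 4 libraries were found at 32.4% of the exonic member sites and 29.5% of all sites. Both Flag-MBD6 libraries alone held 30.9% of the exonic member sites and 20.6% of all sites. A single library of either protein held 19.1 and 30.8%. Flag-MBD5 had 25 member regions, that is, peaks of both libraries merged, and 24 of them (96.0%, 95% Wilson interval 80.5 to 99.3%) overlapped a Flag-MBD6 region, against 90.0% of all Flag-MBD5 regions. The region that did not was the site over Gm4707. Of the 56 Flag-MBD6 member regions, 23 (41.1%, 29.2 to 54.1%) overlapped a Flag-MBD5 region, against 47.7% of all Flag-MBD6 regions. Both shares of the members include the share of the whole series in their intervals.

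Sites found with Flag-MBD6 alone were set against the lower depth of the Flag-MBD5 libraries, whose part in the missing peaks was not tested. Of the 35 exonic member sites whose Flag-MBD6 reads would give at least 10 reads at the Flag-MBD5 depth, 7 (20%) had no Flag-MBD5 peak, against 15.0% of such sites in the series. They were Smc2 sites 2 and 6, Smc4 site 5, Smc5 sites 2, 3 and 6, and Rad50 site 2. The strongest, Smc2 site 6 (chr4:52465972-52466153, exon 16), had 36 summit reads in each Flag-MBD6 library, which would give 16.8 at the Flag-MBD5 depth. Smc5 site 3 (chr19:23254562-23254736, exon 8) had 30 and 35 reads, which would give 15.2. A list without a peak does not show that no read was there.

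The strongest exonic member site was Smc1a site 2 (chrX:152026611-152026864), in exon 5, whose 5′ end lies at codon 232 of 1233. Its deposited fold enrichment over the local background was 46.2, 29.4, 68.4 and 63.0, with 59, 51, 133 and 131 summit reads. Its mean fold ranked 58th of the 3566 sites that had a peak in all 4 libraries. Scaled to depth, the site had 123, 102, 135 and 118 RPM, so the libraries of the proteins overlapped. In Smc3, site 9 at codon 900 of 1217 was the strongest, with folds of 17.7, 19.1, 36.6 and 41.4. In Smc2, site 4 at codon 432 of 1191 had folds of 20.8, 18.2, 39.7 and 28.0. The deposited fold rises with depth where the background is at its floor, so it is not compared between the proteins; the depth-scaled comparison of these sites follows.

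Reads at the 3566 sites were compared between the proteins with an exact binomial test on the pooled summit reads of each protein, two-sided, with the ratio of depths as the null and Benjamini-Hochberg adjustment over the 3566 sites. The scaling sets the split of the calls. With the depths estimated from the peak lists, the median log2 ratio of Flag-MBD6 over Flag-MBD5 over all sites was -0.34, and 101 sites (2.83%) were called higher and 948 (26.6%) lower in Flag-MBD6 at an adjusted p under 0.05. Centred on that median, 328 (9.20%) were called higher and 370 (10.4%) lower.

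Member sites lay on the Flag-MBD6 side of the other sites. Of the 23 member sites with a peak in all 4 libraries, the site over Scarna10 included, 3 were called higher and 2 lower with the estimated depths. Centred on the median, 11 were called higher and 0 lower. The median log2 ratio of the 22 exonic sites was 0.32, against -0.24 over the 2760 such sites with a coding 5′ end in any gene and -0.25 over 120 sites in other long coiled-coil genes. Of the 22, 20 lay above the median of all sites. These medians are given as a description, since sites of a gene share its RNA level.

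Sites 1 of Smc1a, 7 of Smc2 and 4 of Smc5 were called higher in Flag-MBD6 under both scalings. Smc1a site 1 (chrX:152026257-152026556, exon 4) had 14, 15, 56 and 57 summit reads, or 29.2, 30.0, 56.9 and 51.3 RPM, so both Flag-MBD6 libraries were above both Flag-MBD5 libraries. The difference was 0.86 on the log2 scale (95% counting interval 0.26 to 1.51), a 1.82-fold level, with an adjusted p of 0.0153 by the exact binomial test. Smc2 site 7 (chr4:52469779-52470014, exon 18) had 17, 17, 57 and 74 reads, or 35.5, 34.0, 57.9 and 66.6 RPM. It was 0.85 higher on the log2 scale (0.29 to 1.44; adjusted p = 0.00912, exact binomial test), 1.80-fold. Smc5 site 4 (chr19:23243807-23244095, exon 9), the strongest of its gene, had 30, 23, 90 and 81 reads, or 62.7, 46.0, 91.5 and 72.9 RPM. It was 0.59 higher on the log2 scale (0.14 to 1.06; adjusted p = 0.0337, exact binomial test). At all 3 sites the groups of libraries did not overlap.

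These calls rested on the pooled reads of 4 libraries. When either Flag-MBD5 library was left out, 0 member sites were called higher, and without Flag-MBD6 library 1 only the call of Smc2 site 7 held. Without Flag-MBD6 library 2 the number was 3 again, with Smc1a site 4 called in place of Smc2 site 7. The windows of the Smc1a and Smc2 sites are shown to set them beside those of the strongest sites. The second sequence spans the junction of exons 17 and 18.
Smc1a site 1, chrX:152026247-152026306, plus strand: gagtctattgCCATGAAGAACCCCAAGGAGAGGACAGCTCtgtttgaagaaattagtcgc
Smc2 site 7, chr4:52467912-52469828, plus strand: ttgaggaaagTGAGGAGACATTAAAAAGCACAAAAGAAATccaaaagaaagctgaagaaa
The site nearest the threshold without a call was Smc1a site 4 (chrX:152028965-152029466), with 17, 12, 55 and 46 reads, a log2 difference of 0.70 (0.09 to 1.35) and an adjusted p of 0.0677 (exact binomial test), or 0.00509 when centred.

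The sites called lower in Flag-MBD6 were called with the estimated depths only. Rad21 site 3 (chr15:51971672-51971841, exon 8) had 16, 13, 13 and 15 reads, or 33.4, 26.0, 13.2 and 13.5 RPM, and both Flag-MBD6 libraries were below both Flag-MBD5 libraries. Its log2 difference was -1.15 (-1.95 to -0.35; adjusted p = 0.0189, exact binomial test), and -0.81 when centred (adjusted p = 0.149, exact binomial test). The call was lost without any single one of the 4 libraries. The site over Scarna10 in Ncapd2 had 221, 222, 146 and 138 RPM, a log2 difference of -0.65 (adjusted p = 1.59e-05, exact binomial test) or of -0.31 when centred (adjusted p = 0.0805, exact binomial test). The Rad21 window is shown for its contrast with the A-rich windows, since A makes up 26.7% of it.
Rad21 site 3, chr15:51971789-51971848, minus strand: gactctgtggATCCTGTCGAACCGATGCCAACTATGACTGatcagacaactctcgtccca

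The other member sites in all 4 libraries were not called with the estimated depths. In Smc1a, site 3 had 28, 20, 62 and 69 reads (log2 difference 0.35), site 7 had 16, 22, 54 and 54 (0.41) and site 8 had 13, 12, 46 and 40 (0.68). Each of these, like Smc1a sites 1, 2 and 4, was called higher when centred, so all 6 sites of this gene in all 4 libraries were. In Smc3, site 9 had 22, 24, 58 and 69 reads (0.37) and was called when centred (adjusted p = 0.0290, exact binomial test), while sites 3, 6 and 10 had log2 differences of 0.24, -0.17 and -0.10 and were not.

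At the exonic sites of the genes of the other complexes the log2 differences ran from -0.13 to 0.85. Smc2 site 4 (26, 25, 63 and 73 reads, 0.32) and Smc4 site 2 (13, 17, 48 and 44 reads, 0.52) were called higher when centred, and Smc2 site 3 (23, 22, 50 and 61 reads, 0.20) was not. Smc6 site 1 had 14, 15, 40 and 36 reads (0.29), Rad50 site 4 had 16, 20, 50 and 47 (0.33) and Rad50 site 5 had 17, 24, 39 and 41 (-0.13), and none of them was called under either scaling. In Rad21 the log2 difference was 0.45 at site 1 (9, 19, 37 and 45 reads), -0.42 at site 4 (11, 9, 12 and 20 reads) and 0.10 at site 6 (10, 10, 21 and 25 reads), none called under either scaling. Rad21 thus held both exonic sites of the 22 that lay below the median of all sites.

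**Figure D2:**
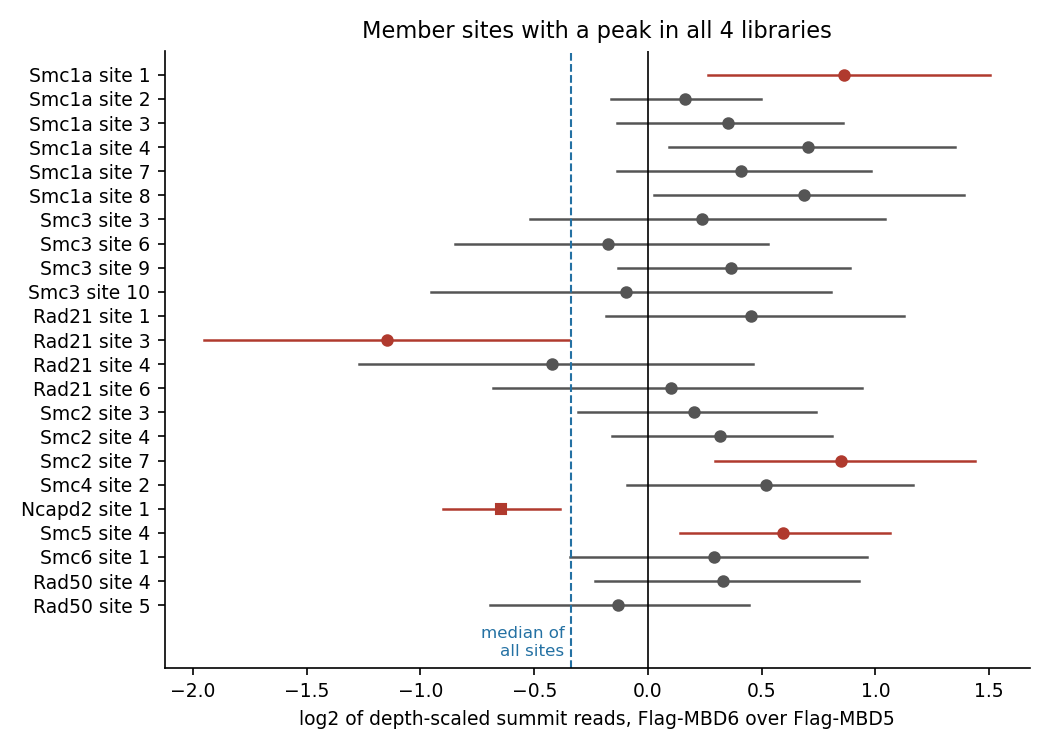
Log2 ratio of depth-scaled summit reads, Flag-MBD6 over Flag-MBD5 (x axis), at the 23 member sites with a peak in all 4 libraries (y axis); bars are 95% counting intervals, red marks an adjusted p under 0.05 with the estimated depths, the square is the site over Scarna10 and the dashed line is the median of all 3566 sites. Of the exonic sites, 20 of 22 lie to the right of the dashed line.

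The member sites were in coding sequence. The 5′ end lay in coding sequence for 93.3, 93.9, 96.8 and 98.4% of member peaks in the 4 libraries, against 88.9, 89.4, 88.7 and 88.4% of all peaks in protein-coding genes. All 68 sites outside the nested genes began in coding sequence of the transcript with the longest coding sequence, after 4 of them were moved by up to 5 nt from an intron to the exon they abut. The authors aligned reads without splicing, and 2 of the 68 sites began at the first base of an exon. The 5′ end of Smc6 site 1 (chr12:11271777-11271941), at codon 15 of 1097, was the only one of an SMC gene before the ATPase motif.

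**Figure D3:**
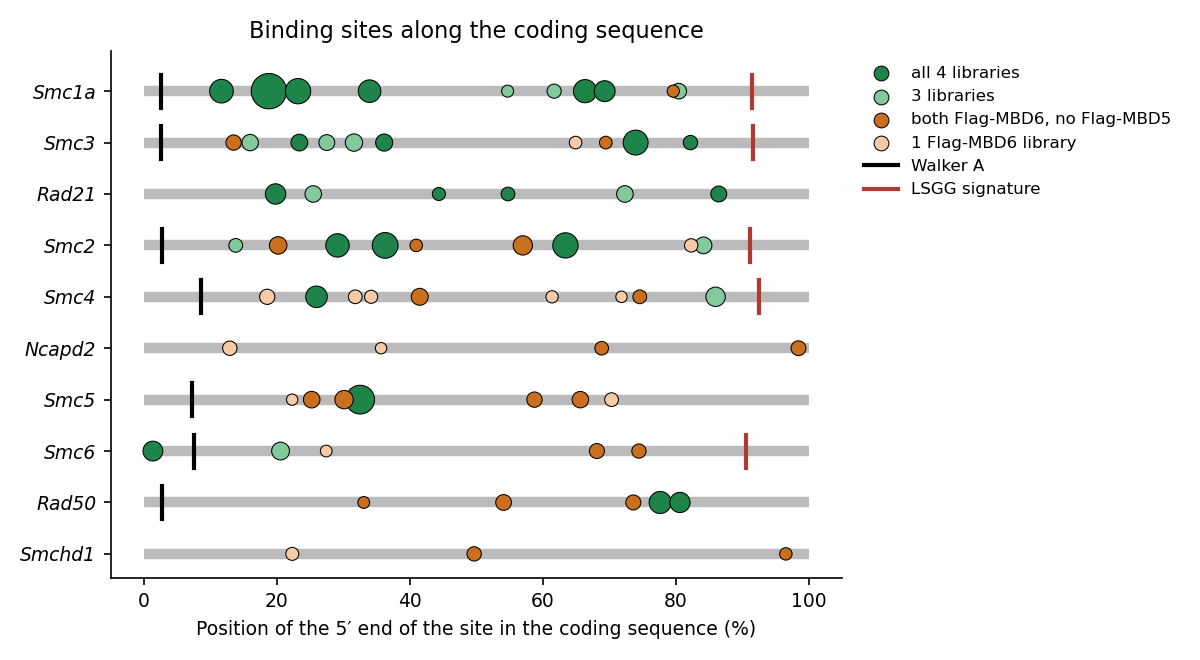
Position of the 5′ end of each of the 68 exonic sites in the coding sequence of each member (x axis, % of its length); colours give the libraries with a peak and the area of a circle grows with the mean RPM of its Flag-MBD6 peaks. Black ticks mark the Walker A motif and red ticks the LSGG signature where a script found them; 42 of 43 sites in the 5 genes with both ticks lie between them.

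The position of the sites was set against the plan of the proteins. A Walker A motif, the phosphate-binding loop of the ATPase head, was found by its pattern in the translated coding sequences of the 6 SMC members and Rad50, at codon 32 in Smc1a, Smc3 and Smc2, 111 in Smc4, 80 in Smc5, 82 in Smc6 and 36 in Rad50. The LSGG signature of the other side of the head was found at codons 1128, 1115, 1085, 1189 and 993 of Smc1a, Smc3, Smc2, Smc4 and Smc6. In these 5 genes 42 of 43 sites (97.7%) began between the motifs, which span 86.7% of the codons. In the 7 genes with a Walker A motif, 12.7, 34.5, 10.9, 30.9 and 10.9% of 55 sites began in 5 successive bins of equal length along the coding sequence. In all genes with a coding sequence as long as that of the shortest member, the shares over 6291 sites were 22.6, 21.3, 19.9, 19.4 and 16.8%.

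Sites in the SMC members and Rad50 were thus more frequent to either side of the middle. The bins from 20 to 40% and from 60 to 80% of the length together held 36 of the 55 sites (65.5%, 95% Wilson interval 52.3 to 76.6%), against 40.7% in the long genes and 41.1% in all genes. In the SMC plan, which RAD50 shares for the head and the coiled coil only, these stretches code mainly for the coiled coil, the middle for the hinge and the ends for the head. Smc3 had sites 1 to 6 between codons 164 and 440 and sites 7 to 10 between codons 790 and 1001, with none between codons 440 and 790. Smc6 had none between codons 301 and 748. The bin from 40 to 60% held 6 sites: Smc1a site 5 (54.7%), Smc2 sites 5 (40.9%) and 6 (57.0%), Smc4 site 5 (41.5%), Smc5 site 5 (58.7%) and Rad50 site 2 (54.1%). The interval covers counting only, and sites of a gene share its RNA. The bins were chosen after the positions had been seen.

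**Figure D4:**
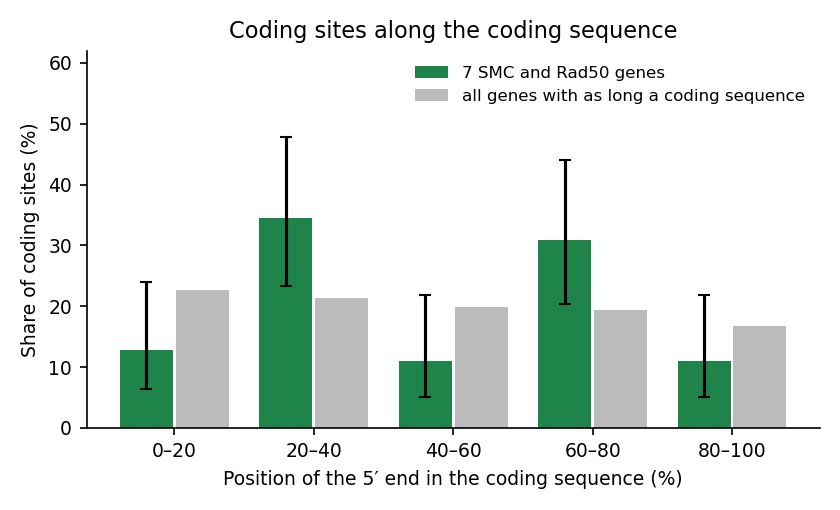
Share of coding sites (y axis, %) by position of the 5′ end in 5 bins of the coding sequence (x axis), for the 55 sites of the 6 SMC members and Rad50 (green, bars are 95% Wilson intervals) and for the 6291 sites of all genes with a coding sequence of at least 1905 nt (grey). The green bars are highest at 20 to 40% and 60 to 80%.

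The windows were rich in adenine and poor in uracil. Over the 68 exonic sites, A made up 44.1% of the windows and 33.7% of the members' coding sequences, U made up 15.8 and 22.5%, C 15.4 and 19.4%, and G 24.8 and 24.4%. In 59 of the 68 windows the share of A was above that of the gene's own coding sequence, and in 57 the share of U was below it. A single window ranged from 20% A (Rad21 site 4) to 63.3% A (Smc2 site 9, Smc3 site 4 and Smc6 site 4), with a median of 43.3%. The codons for glutamate and lysine, GAA, GAG, AAA and AAG, made up 33.3% of the codons in the windows and 20.04% in the coding sequences.

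The excess of A was not particular to the members. The mean difference in A between a window and the coding sequence of its own gene was 9.93 percentage points over the 68 member sites, 7.33 over 256 sites in other long coiled-coil genes and 9.39 over 9422 coding sites of all genes. For the glutamate and lysine codons it was 11.97, 8.92 and 11.8 points. The windows themselves had more A in members, at 42.8 to 44.2% in the 4 libraries against 37.6 to 38.9% over all coding peaks, and the members' coding sequences are A-rich. Cytosine, the base that carries m5C, was 15.1 to 17.8% of the windows of member peaks in the 4 libraries, against 19.98 to 21.7% over all coding peaks.

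Rad21 stood apart from the SMC members in its bases. Its 6 windows had 31.7% A, with 31.1% in its coding sequence, and 12.7% glutamate and lysine codons, with 18.7% in its coding sequence. Smc6 windows had 50.7% A, Smc4 49.3% and Smc2 47.0%, with 36.9, 37.97 and 36.6% in their coding sequences. Smchd1 had 45.6% A in its 3 windows, with 32.1% in its coding sequence. Ncapd2, whose coding sequence has 24.7% A, had 39.2% A in its 4 windows. No test was made of these differences.

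**Figure D5:**
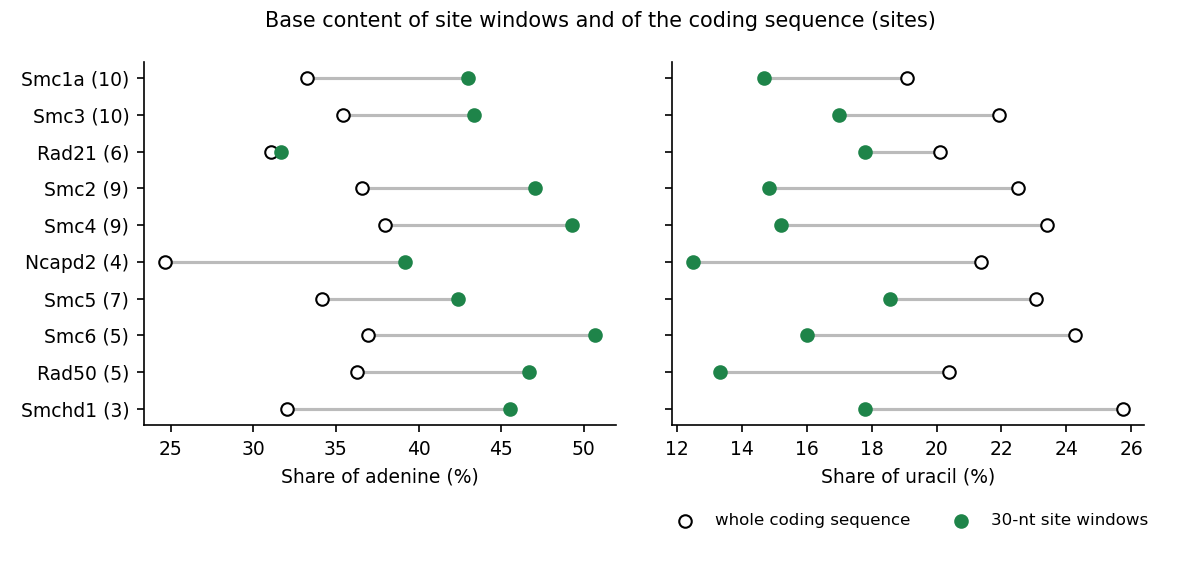
Share of adenine (left, %) and uracil (right, %) in the 30-nt windows of exonic sites (filled) and in the whole coding sequence (open) of each member, with the number of sites in parentheses. A was higher in the windows than in the coding sequence for all 10 members, by the least in Rad21 (31.7 against 31.1%), and uracil was lower for all 10.

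G stood before the 5′ end at 49 of 64 sites whose end had not been moved, C at 10, U at 3 and A at 2. Over member peaks G preceded the 5′ end in 82.1 and 83.9% with Flag-MBD5 and in 78.9 and 78.3% with Flag-MBD6. Over all coding peaks it did so in 83.4 and 83.3% and in 74.2 and 73.4%. G came before all 9 such sites of Smc1a and all 9 of Smc3, before 3 of 7 of Smc5 and before 2 of 5 of Rad50. The part of RNase T1, which cuts after G, in the bases of the windows was not tested.

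Other genes of the same complexes had fewer peaks. Of 32 genes on a list of further subunits, loaders and regulators, 9 had a peak in both Flag-MBD5 libraries and 18 in both Flag-MBD6 libraries, and the median number of peaks over the 4 libraries was 2.5, where that of the members was 15.5. The most were in Nipbl, the cohesin loader, with 25 peaks, Wapl, which releases cohesin, with 18, Stag1 with 16 and Pds5b with 15. No peak was found in Cdca5, Espl1, Hdac8, Mau2, Nsmce1, Rad21l, Rec8 or Smc1b. Rec8, Rad21l and Smc1b are the meiotic counterparts of members, but Stag3, the meiotic STAG subunit, had 1, 1, 3 and 3 peaks. Stag2, the other mitotic STAG subunit, had a single peak. The list has shorter coding sequences, with a median of 2259 nt against 3675 nt for the members, and neither length nor RNA level was matched.

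Other genes for long coiled-coil proteins had peaks as often as the members. Of 22 such genes, 20 had a peak in both Flag-MBD5 libraries and 22 in both Flag-MBD6 libraries, with a median of 5.22 peaks per kb of coding sequence against 4.34 for the members. Tpr, a nuclear pore protein, had 85 peaks, Myh9, a non-muscle myosin heavy chain, 84, Cenpe, a kinetochore kinesin, 59, and Akap9, a centrosomal scaffold, 57. The list had 155 and 163 peaks with Flag-MBD5 and 238 and 230 with Flag-MBD6.

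Windows were searched for sequence shared with other genes. Of the 68 exonic windows, 1, that of Rad21 site 6, had a run of 20 nt that also occurs in a transcript of another gene, Gm8473, and reads there could come from either. The other 67 had none among GENCODE transcripts in the stretches searched, the 20 nt from base 1 and the 20 nt from base 11. RNA levels in these cells were not measured in the files used here, so a gene with many peaks and a gene with much RNA cannot be told apart.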

How the data were processed

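CLIP peaks of Flag-MBD5 and Flag-MBD6 (2 libraries each) were analysed; the inputs were not used here as samples. The authors clipped and collapsed reads, removed ribosomal RNA, aligned without splicing to mm10 with Bowtie 1.0.0, split strands with SAMtools 1.16.1 and ran MACS2 by strand (version 2 in the submitters' processing notes; extension of 150 bp, genome size of 130000000) at q under 0.01. Their MACS2 setting also limited how many reads at the same position were kept. The part of that limit in the summit reads and in the spread between replicates was not tested. The deposited values of a peak are a score (−log10 q times 10, rounded down), a fold enrichment, which is a ratio of summit to background, −log10 p and −log10 q, and the offset of the summit.

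Reads and background rate at each summit were solved from the deposited fold and p, as integer reads over a Poisson background (100% of peaks in each library). The lowest rate on each strand gave the depth. RPM are such reads per 1000000 reads of that depth, and the reads of a site in a library are those of its strongest peak there. Transcripts were those with the longest coding sequence per gene (GENCODE M21). The solving of reads and the test between the proteins were tried on simulated data, and the other computations were not. Python 3.11.15, numpy 2.4.6, pandas 2.3.3 and scipy 1.17.1 were used. The test of 2 proteins compares pooled libraries. Intervals printed with a result are 95% and cover counting error only. For the share of A, alternatives were instead set against the value with the standard deviation over the 4 libraries on either side.

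The members, gene lists, tests and named sites were chosen with earlier results of these data known. Named were all members, the site of each found in most libraries with the highest mean fold, sites called or nearest the threshold, up to 4 genes with most peaks and those with none on each list, and the 3 genes nearest Smc1a, of which 1 is not reported here. Other sites were chosen after their values were seen. The list of further complex genes held 32 genes, that of long coiled-coil genes 22, and the markers 10, 8 and 7. Alternatives covered q under 0.001, a fold of at least 4, the position and strand used for assignment, equal numbers of peaks, overlap of 50%, regions of either library, centring, adjusted p under 0.01, a replicate block, a 50-nt window, other transcripts and leaving out each library. No protein or genome sequence was used here; whole coding sequences were translated only to find motifs, with the patterns GNNGNGK followed by S or T, where N is any residue, and LSGG.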

Additional observations from a re-analysis of the deposited data

How the results depend on the processing

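Of 143 values recomputed under alternatives, 125 stayed within their interval or within 1.5 times their count, and 18 moved outside. A reversal was not defined for these values. Of the 143, 80 were identical to the reported value, most of them under settings that changed no member value (q under 0.001, a fold of at least 4, assignment by summit, 15 nt inside or on either strand, and other transcripts, among others). Of 54 values of single sites, 34 kept their side of the threshold, 18 lost the call and 2 gained it. With the same number of peaks per library the ratio of member peaks was 1.41. With a reciprocal overlap of 50%, 80% of Flag-MBD5 member regions were shared, and regions of either library numbered 38 for Flag-MBD5, where 25 were in both. A 50-nt window had 42.5% A, where 30 nt had 43.8% over the member peaks. Centring on the median called 11 member sites higher and 0 lower, where the estimated depths called 3 and 2, and an adjusted p under 0.01 left 1 higher and 1 lower. Leaving out each library in turn gave 0 to 3 sites higher and 1 lower, and the remaining results moved within their intervals. Fewer reads enter each test when a library is left out.

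The replicate block, an exact test stratified by replicate number, gave 3 sites higher and 2 lower, the numbers without it, and the mean of the ratios of same-numbered libraries was 2.003. The libraries share only a number: the correlation of same-numbered deviations over 3566 sites was 0.03. Without peaks over the genes nested in members, chosen after seeing the data, 100% of Flag-MBD5 member regions were shared, 99.5% of member peaks began in coding sequence, and 1 site was called lower. The threshold of 10 expected reads was also chosen after seeing the data. The depth of the Flag-MBD5 libraries limits which weak sites could be called, and the reads are estimates from peak lists, not counts of molecules.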
